A study of Mus musculus with 12 samples.

Results

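The genes of cholesterol and fatty acid synthesis were followed in NSPCs, the neural stem/progenitor cells grown as neurospheres from mouse forebrain at E14.5. The set held 38 of the 24525 genes in the count tables and was taken by gene symbol: 17 enzymes of sterol synthesis, 5 SREBP and Insig regulators, 6 genes of sterol transport, esterification and LXR, and 10 genes that make or modify fatty acids. Expression was measured by RNA-seq in 3 wild-type and 3 Ythdf2-/- samples, named here by genotype and replicate number. They are the input of an m6A-IP experiment, mRNA that was fragmented but not enriched with the antibody, and the IP samples were not analysed here. All 6 came from C57BL/6 cells at passage P1, grown with EGF, bFGF, N2 and B27 lacking vitamin A, with no other treatment. The Ythdf2-/- embryos came from intercrosses of heterozygotes whose 5′ UTR and exon 1 had been flanked by LoxP sites with CRISPR-Cas9 and removed by a ubiquitous Cre, so the loss was not limited to neural cells. Ythdf2 binds m6A-marked mRNA and promotes its decay.

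Cells build cholesterol from acetyl-CoA through mevalonate, isoprenoid units, squalene and lanosterol. When membrane sterol is low, Scap carries the SREBP transcription factors from the endoplasmic reticulum to the Golgi, where they are cut and freed to switch on this pathway and fatty acid synthesis, and when sterol is ample the Insig proteins hold Scap back. Oxysterols also activate the LXR receptors, which raise sterol export. The brain makes its own cholesterol, because lipoproteins of the blood do not cross into it, and the pathway is used heavily by glia that make membrane.

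Promoter sequence is shown first because many of these genes share an SREBP input. RefSeq promoters of GRCm38.p6, from 250 bases before to 50 bases after the start site, were at hand for 30 of the 38 genes, and were searched on both strands for 4 motifs. These were a sterol regulatory element, TCACNCCAC, and the E-box CACGTG, which SREBPs bind, the CCAAT box, bound by NF-Y, and the GC box GGGCGG, bound by Sp1. Fads1, Fdft1, Fdps, Abcg1, Scd1, Scd2, Sqle and Stard4 had no entry. The stretches below lie before the start site and outside annotated exons, and are read 5′ to 3′ on the gene's strand with motif letters in capitals. Hmgcs1 is shown as the most abundant sterol enzyme, Mvk and Fasn because their genotypes did not overlap, and Insig1 for its E-box.
Hmgcs1, chr13:119690101-119690350, plus strand: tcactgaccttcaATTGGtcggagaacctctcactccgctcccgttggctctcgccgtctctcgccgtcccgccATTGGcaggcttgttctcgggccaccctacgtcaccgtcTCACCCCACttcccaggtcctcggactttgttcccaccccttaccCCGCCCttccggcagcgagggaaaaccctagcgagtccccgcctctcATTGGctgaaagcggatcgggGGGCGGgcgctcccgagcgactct
Mvk, chr5:114444061-114444268, plus strand: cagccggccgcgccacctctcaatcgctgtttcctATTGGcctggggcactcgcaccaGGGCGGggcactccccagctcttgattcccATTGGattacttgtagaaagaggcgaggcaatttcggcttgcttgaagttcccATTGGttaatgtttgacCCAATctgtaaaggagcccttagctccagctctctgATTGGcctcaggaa
Insig1, chr5:28071162-28071362, plus strand: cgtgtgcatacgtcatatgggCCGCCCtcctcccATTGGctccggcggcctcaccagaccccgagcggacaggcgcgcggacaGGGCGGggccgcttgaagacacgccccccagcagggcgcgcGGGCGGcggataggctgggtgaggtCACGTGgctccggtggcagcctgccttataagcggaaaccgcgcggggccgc
Fasn, chr11:120824548-120824797, minus strand: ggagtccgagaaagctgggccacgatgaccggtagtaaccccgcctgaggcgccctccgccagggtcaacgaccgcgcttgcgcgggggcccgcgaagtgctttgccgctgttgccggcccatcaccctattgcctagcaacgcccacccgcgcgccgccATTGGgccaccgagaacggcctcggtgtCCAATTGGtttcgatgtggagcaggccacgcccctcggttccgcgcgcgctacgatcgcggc

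The Hmgcs1 promoter alone among the 30 held the sterol regulatory element, as TCACCCCAC beginning 137 bases before the start site, against 1.44% of all 27025 genes with a promoter in the table and 1.45% of the genes tested below. The E-box was found in 7 of 30 (Abca1, Dhcr7, Elovl5, Hsd17b7, Insig1, Sc5d and Scap), against 8.09% of all genes and 11.7% of the genes tested, and in Insig1 it began 101 bases before the start site. CCAAT was found in 23 of the 30, including each of the 14 sterol enzymes with a promoter, against 41.1% of all genes and 43.5% of the genes tested. Mvk held it at 5 places, the nearest 14 bases before the start site. Fasn held it at 3, of which a pair overlaps within one palindrome. The GC box was found in 23 of 30, against 38.2% of all genes and 69.7% of the genes tested. The far end of the Mvk window is exon of the neighbouring gene Mmab on the other strand and is not printed. These matches are letters in a window and were not measured as sites.

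The 6 libraries held 11029827 to 13185778 counted reads, and the member genes took 1.45% to 2.16% of them, least in Ythdf2-/- 2 and most in Ythdf2-/- 3. Values were scaled by library total and TMM factor to CPM, read counts relative to library size, and 13112 genes with enough reads for edgeR's filter were tested, among them 37 of the 38. The labelled knockout was checked on Ythdf2 itself, which had 71.9, 73.3 and 91.4 CPM in wild type 1 to 3 and 11.7, 14.7 and 11.1 CPM in Ythdf2-/- 1 to 3, a log2 fold change of -2.66 (SE 0.183, edgeR adjusted p 0.0547). Wild type 3 stood apart. Its mean Spearman correlation with the other 5 libraries over genes was 0.897, against 0.959 to 0.967 for each of those, and it had 3046 CPM of the astroglial gene Gfap and 573 CPM of the myelin gene Mbp, against at most 625 and 8.85 elsewhere. Reads on 4 Y-linked genes were present in wild type 1, wild type 2 and Ythdf2-/- 3 (1111 to 2147 reads) and absent from the others (0 or 1 read). The progenitor markers Sox2, Nes and Vim were at 264 CPM or more in every library, while Ptprc, C1qa, C1qb and Cldn5, which define leukocytes, microglia and endothelium, had no read. Other markers of the microglia and endothelial lists did have reads, such as Cd14 with 6 to 59 and Kdr with 8 to 18 per library. In bulk RNA, fewer cells of a type and less RNA per cell cannot be told apart.

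Sterol synthesis RNA was abundant in both genotypes. Levels between genes were compared per length, as CPM per kilobase of transcript averaged over the 6 libraries. Scd2, a stearoyl-CoA desaturase, and Hmgcs1, the synthase of HMG-CoA, led the set at means of 804 and 764 CPM per kilobase. Their order was not stable, as Scd2 led in the wild-type mean (809 against 705) and Hmgcs1 in the Ythdf2-/- mean (824 against 799). Fdps, which makes farnesyl diphosphate, Fads2 and Fads1, the desaturases of polyunsaturated fatty acids, and Msmo1, a demethylating oxidase of lanosterol processing, followed at 287, 249, 233 and 213. At the low end were Insig2 at 9.76, Nr1h3, which encodes LXRα, at 0.772, and Abcg1, a sterol exporter, at 0.0834. Abcg1 had 0, 3 and 14 reads in wild type 1 to 3 and 5, 11 and 2 in Ythdf2-/- 1 to 3 and was the only member below the filter. Hmgcs1 lay above Fdps in every library, whereas Pmvk and Mvd, with means of 85.3 and 84.7, did not differ beyond their spread.

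**Figure D1:**
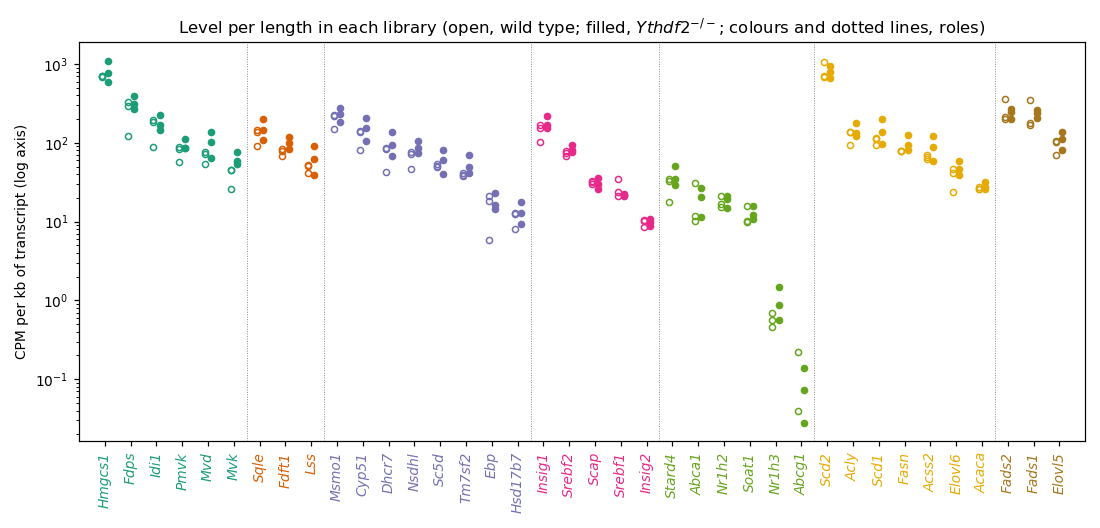
CPM per kilobase of transcript (vertical log axis) of each of the 38 genes in each library, with open points for wild type, filled points for Ythdf2-/-, and colours and dotted lines marking roles. Scd2 and Hmgcs1 sit highest, and Nr1h3 and Abcg1 lie far below the others; the wild-type library in which Abcg1 had no read is not drawn.

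In the comparison of genotypes, no member passed edgeR's quasi-likelihood test with Benjamini-Hochberg adjustment over all genes, as was so for all 13112 genes (0%). Each of the 37 members tested had an adjusted p of 0.999, and DESeq2 and limma-voom called no member either. At an unadjusted p under 0.05, 1 member was higher in Ythdf2-/- (1.81% of all genes) and 0 were lower (1.82%). The genotypes did not overlap for 3 members that were higher in each Ythdf2-/- library, namely Mvk, Fdft1 and Fasn (5.24% of all genes), and for none that were lower (4.92%). An exact permutation test of a single gene, at 3 libraries a genotype, has a smallest p of 0.1. The samples are named as biological replicates, and the p-values measure the spread between them.

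Most members nevertheless had a higher mean in Ythdf2-/-. The log2 fold change was above 0 for 32 of the 37 members, against 48.1% of all genes, with a median of 0.25 against -0.01 over all genes. It was above 0 for each of the 17 sterol enzymes, from 0.21 for Msmo1 to 0.71 for Mvk, with a median of 0.38. The members share regulators and libraries, so they do not count as independent observations. The heat map of the members shows how the values fell by library. Ythdf2-/- 3 was the highest of the 6 libraries for 28 of the 37 members and for each of the 17 sterol enzymes, against 16.3% of all genes. Wild type 3 was the lowest for 21 members and for 13 of the 17 enzymes, against 34.4% of all genes, and it was the highest for 5 members (33.8%).

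**Figure D2:**
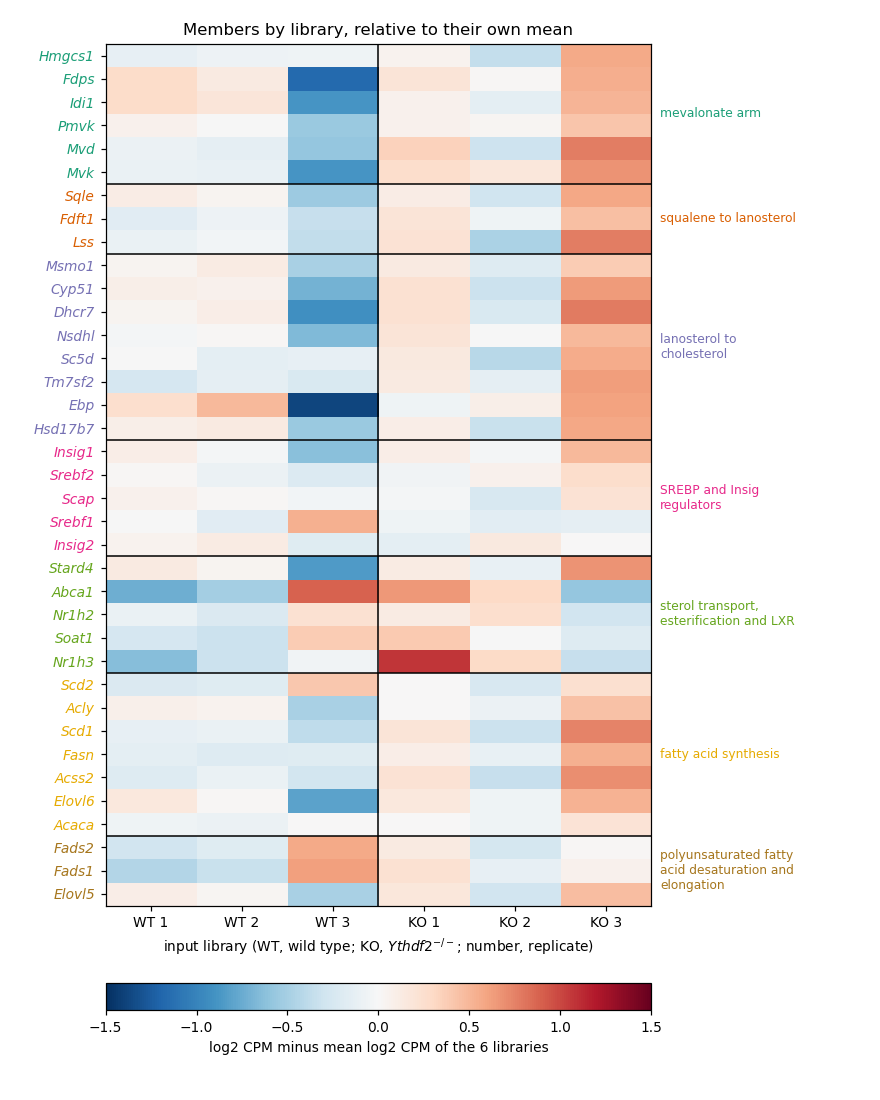
Log2 CPM of the 37 members tested minus their mean over the 6 libraries (colour scale), with libraries as columns, genes as rows grouped by role and ordered by level per length. The Ythdf2-/- 3 column is the warmest for all sterol enzymes, the wild type 3 column is the coolest for most of them, and Abca1, Fads1, Fads2, Scd2 and Srebf1 are warmest in wild type 3.

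The mevalonate arm turns acetyl-CoA units into farnesyl diphosphate. Hmgcs1 (chromosome 13, 119690379 to 119708260, plus strand) had 2425, 2503 and 2513 CPM in wild type 1 to 3 and 2736, 2058 and 3899 CPM in Ythdf2-/- 1 to 3. The wild-type libraries lay close together, the Ythdf2-/- libraries spanned both sides of them, and the log2 fold change was 0.22 (SE 0.274). Mvk, mevalonate kinase (chromosome 5, 114444269 to 114460591, plus strand), had 77.5, 76.2 and 44.7 CPM against 99.0, 93.0 and 132 CPM. All Ythdf2-/- values were above all wild-type values, with a mean of 108 ± 20.8 CPM against 66.1 ± 18.6 CPM (SD, n = 3 each). Its log2 fold change was 0.71 (SE 0.258), with an unadjusted p of 0.0322 in edgeR and an adjusted p of 0.999. The fold stayed above 0 with any 1 library left out (0.49 to 0.84) and was 0.32 without both libraries numbered 3.

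The next enzymes overlapped between genotypes. Mvd, mevalonate diphosphate decarboxylase, had 135, 130 and 95.7 CPM in wild type and 181, 115 and 243 CPM in Ythdf2-/-, a log2 fold change of 0.58 (SE 0.295). Only Ythdf2-/- 2 fell inside the wild-type range. Fdps had 420, 380 and 154 CPM against 396, 349 and 503 CPM, so its log2 fold change of 0.39 (SE 0.384) rested on the low value in wild type 3 and was 0.06 without that library. Idi1, the isomerase between Mvd and Fdps, behaved alike, with 560, 525 and 251 CPM against 482, 416 and 655 CPM, and its log2 fold change of 0.22 became -0.07 without wild type 3. Pmvk, the second kinase of the arm, had a log2 fold change of 0.32 (SE 0.210). Fdps and Idi1 share stretches of at least 95% identity over 100 bases or more with 5 and 2 pseudogenes, so part of their reads is uncertain. Fdps also shares 1124 exon bases with Gm43738 on its own strand, and 557 exon bases of Hmgcs1 (12.1%) overlap Gm48342 on the opposite strand.

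Squalene is made by Fdft1, epoxidised by Sqle and folded into lanosterol by Lss. Fdft1 (chromosome 14, 63145150 to 63179578, minus strand) had 288, 308 and 254 CPM in wild type and 371, 310 and 441 CPM in Ythdf2-/-. The genotypes did not overlap, but Ythdf2-/- 2 exceeded wild type 2 only marginally, and the log2 fold change was 0.40 (SE 0.178, unadjusted p 0.0626 in edgeR). In the deposited FPKM values, which rest on far fewer reads, it was -0.23 on the log2(FPKM + 1) scale. Of its exon bases, 774 (18.3%) overlap exons of Ctsb on the opposite strand, and the strand setting of the count is not given in the sources used here. It also shares 1249 bases at 97.4% identity with a processed pseudogene, Gm6781, so its reads are uncertain on both counts. Sqle had 397, 377 and 251 CPM against 397, 298 and 550 CPM, and Lss had 318, 332 and 264 CPM against 396, 246 and 580 CPM. For both, Ythdf2-/- 3 was highest and the genotypes overlapped, with log2 fold changes of 0.28 (SE 0.287) and 0.42 (SE 0.315).

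Of the 8 enzymes from lanosterol to cholesterol, none separated the genotypes, and the log2 fold change ran from 0.21 to 0.51. Msmo1, the most abundant per length, had 394, 414 and 273 CPM in wild type and 418, 335 and 498 CPM in Ythdf2-/-. Cyp51, the lanosterol demethylase, had 610, 600 and 352 CPM against 674, 460 and 894 CPM. Dhcr7, which completes cholesterol, had 234, 243 and 120 CPM against 267, 193 and 389 CPM and the highest fold of this step, 0.51 (SE 0.360). In all 3, wild type 1 and 2 agreed closely, wild type 3 was lowest and Ythdf2-/- 3 was highest. Ebp, a sterol isomerase on the X chromosome, varied most among the enzymes, with 31.7, 37.2 and 10.3 CPM against 25.4, 28.2 and 40.5 CPM. Its log2 fold change was 0.25 with all libraries and -0.14 without wild type 3. Nsdhl, the other X-linked enzyme, had 162, 168 and 104 CPM against 188, 164 and 231 CPM. Tm7sf2 and Sc5d were not low in wild type 3, which had 57.0 CPM of Tm7sf2 beside 56.1 and 61.1 CPM in the other wild-type libraries, and 113 CPM of Sc5d beside 122 and 111 CPM. Their log2 fold changes of 0.45 (SE 0.208) and 0.24 (SE 0.247) rested on Ythdf2-/- 3, with 103 and 180 CPM, and were 0.21 and -0.02 without it. Hsd17b7, a ketosteroid reductase, was the least abundant enzyme of sterol synthesis per length, at 12.2 CPM per kilobase. Msmo1 shares stretches of at least 95% identity over 100 bases or more with 62 other genes, so part of its reads is uncertain. Tm7sf2 shares 532 exon bases with Vps51 on its own strand.

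**Figure D3:**
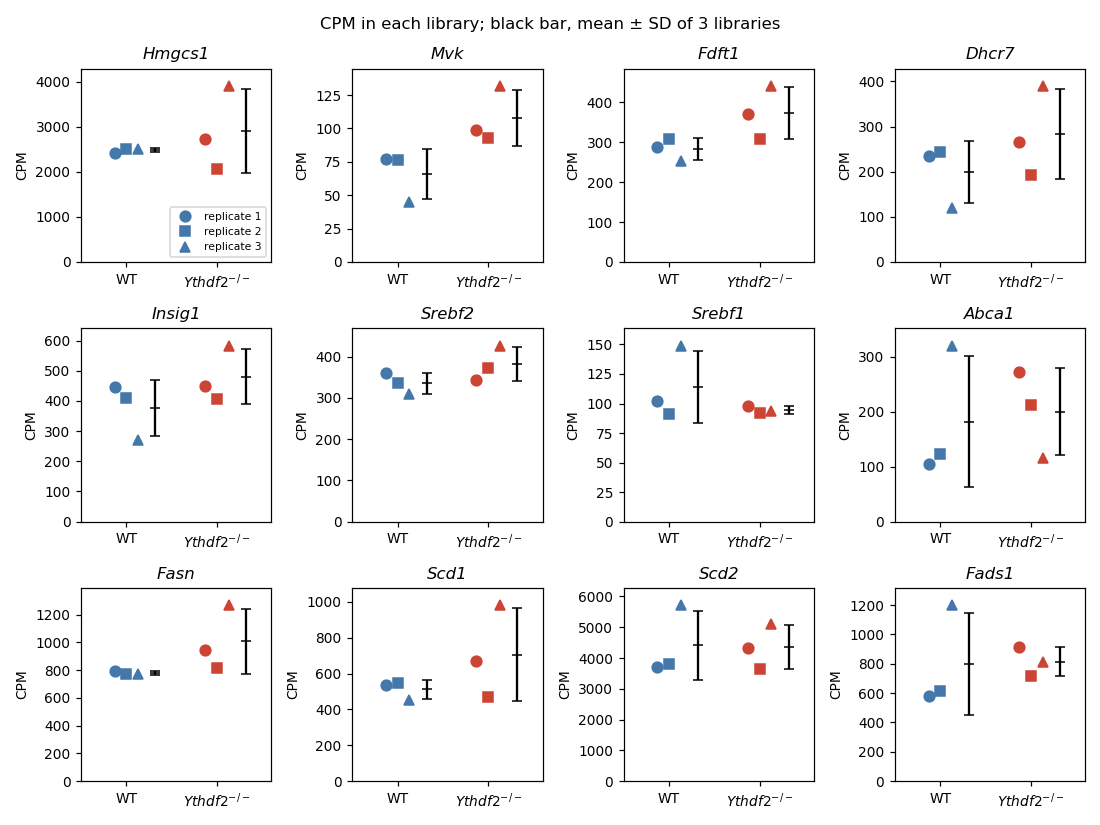
CPM (vertical axes from 0) of 12 genes in each library, wild type in blue and Ythdf2-/- in red, with the marker shape for the replicate number and the black bar for the mean ± SD of 3 libraries. Mvk, Fdft1 and Fasn do not overlap between genotypes, while Abca1 is high in wild type 3 and in Ythdf2-/- 1 and 2.

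Summed over the 17 sterol enzymes, expression was 6385, 6416 and 4957 CPM in wild type 1 to 3 and 6994, 5356 and 9544 CPM in Ythdf2-/- 1 to 3. The libraries numbered 3 were therefore the lowest and the highest of the 6, while the other 4 lay between 5356 and 6994 CPM with the genotypes interleaved. As ratios of mean CPM, the median log2 ratio over the 17 enzymes was 1.14 for Ythdf2-/- 3 over wild type 3, with 17 above 0. It was -0.04 for Ythdf2-/- 1 and 2 over wild type 1 and 2, with 6 above 0, where 6663 of 13065 genes were above 0. Among the libraries with Y-linked reads, Ythdf2-/- 3 over wild type 1 and 2 gave 0.56, with 17 above 0. Among those without, Ythdf2-/- 1 and 2 over wild type 3 gave 0.61, with 16 above 0. Each of these within-sex values rests on 1 library of a genotype, and on the libraries that stood at the ends of the range.

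The medians and counts depended on single libraries. Without Ythdf2-/- 3 the median log2 fold change of the sterol enzymes was 0.12, without wild type 3 it was 0.22, and without both it was -0.04, with 6 of 17 above 0, and the median over all 37 members was 0.00. Without both, 6 members were higher at an unadjusted p under 0.05 (11.3% of all genes) and 1 was lower (10.3%), and 0 passed the adjusted threshold (0.106%). Without wild type 3 alone, 2 members were higher at an unadjusted p under 0.05, Mvk and Fads1 (8.03% of all genes), and none passed adjustment (0.0151%). With a term for Y-linked reads in edgeR the sterol median was 0.55 and that over all 37 members 0.47, 21 members were higher at an unadjusted p under 0.05 (5.23% of all genes), and the smallest adjusted p of a member was 0.151, for Mvk. Without Ythdf2-/- 2, which had the lowest summed sterol enzyme expression of its genotype, 9 members were higher (2.11% of all genes). In limma-voom with sample quality weights, wild type 3 was given a weight of 0.0957, 11 members were higher at an unadjusted p under 0.05 (14.7% of all genes), and none passed adjustment (1.15%), the smallest adjusted p being 0.0625, for Fads1.

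**Figure D4:**
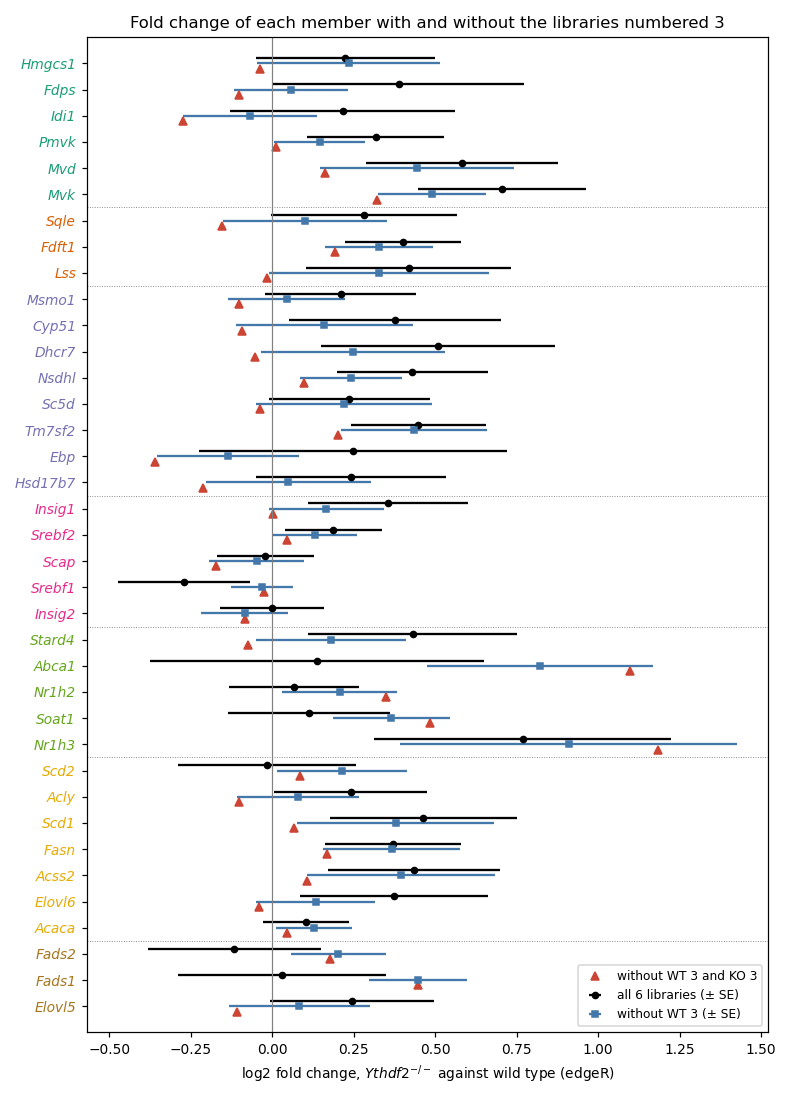
Log2 fold change of Ythdf2-/- against wild type from edgeR (horizontal axis) for the 37 members tested, in black with all 6 libraries (± SE), in blue without wild type 3 (± SE) and as red triangles without both libraries numbered 3. The triangles of most sterol enzymes lie near or below 0, and those of Abca1 and Nr1h3 lie above 1.

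The 5 regulators had a median log2 fold change of 0.00. Insig1, which retains Scap and is itself an SREBP target (chromosome 5, 28071363 to 28078662, plus strand), had 445, 410 and 271 CPM in wild type and 448, 408 and 583 CPM in Ythdf2-/-, a log2 fold change of 0.35 (SE 0.246) that was 0.00 without both libraries numbered 3. Its pattern over libraries was that of the enzymes, lowest in wild type 3 and highest in Ythdf2-/- 3. Srebf2, which encodes the SREBP of sterol synthesis, had 360, 337 and 309 CPM against 345, 374 and 427 CPM, in the same order at the ends but over a narrower range, 1.38-fold between its highest and lowest library. Srebf1, which encodes the SREBP of fatty acid synthesis, went the other way, with 102, 91.0 and 149 CPM against 98.0, 91.7 and 93.4 CPM. Only wild type 3 stood out, and the log2 fold change of -0.27 (SE 0.202), the lowest of the set, was -0.03 without it. Scap had 134, 130 and 125 CPM against 126, 108 and 149 CPM (log2 fold change -0.02, SE 0.149), with 985 exon bases (13.2%) overlapped by a gene on the opposite strand. Insig2 had between 20.9 and 26.1 CPM in all libraries, with a log2 fold change of 0.00 (SE 0.160).

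Sterol transport, esterification and LXR held the members least like the enzymes. Stard4, which carries cholesterol through the cytosol, followed the enzymes, with 104, 97.3 and 52.6 CPM in wild type and 103, 87.9 and 151 CPM in Ythdf2-/- (log2 fold change 0.43, SE 0.320). Abca1, the LXR-driven cholesterol exporter (chromosome 4, 53030787 to 53159895, minus strand), ran opposite to most of them, with 104, 122 and 320 CPM against 272, 213 and 116 CPM. Wild type 3 was highest and Ythdf2-/- 3 lay among wild type 1 and 2, so the log2 fold change was 0.14 with an SE of 0.514. Without both libraries numbered 3 it was 1.10 (SE 0.157), the largest difference of a member with over 100 CPM in that fit, with an unadjusted p of 0.000566 and an adjusted p of 0.0921 in edgeR. Leaving out 1 library at a time gave -0.14 to 0.82.

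Nr1h3 had 0.856, 1.07 and 1.28 CPM in wild type and 2.81, 1.63 and 1.05 CPM in Ythdf2-/-, or 10 to 33 reads per library. Its log2 fold change of 0.77 (SE 0.455) was the highest of the set but the genotypes overlapped, with Ythdf2-/- 3 inside the wild-type range. Nr1h2, which encodes the more widely expressed LXRβ, had 33.5, 30.9 and 41.9 CPM against 39.1, 42.8 and 29.5 CPM, lowest in Ythdf2-/- 3. Soat1, which esterifies cholesterol for storage, had 49.0, 46.7 and 75.5 CPM against 76.1, 57.8 and 51.0 CPM, and overlapped between genotypes (log2 fold change 0.11, SE 0.248). Stretches of at least 95% identity with 43 other genes leave part of the Soat1 reads uncertain. Abca1, Nr1h2, Nr1h3 and Soat1 were thus each higher in wild type 3 than in wild type 1 and 2 and lower in Ythdf2-/- 3 than in Ythdf2-/- 1 and 2, by mean CPM, the reverse of most of the enzymes. For Nr1h3 the difference among wild types was 14 reads against 10 and 14. The 4 were among the 6 members higher at an unadjusted p under 0.05 without the libraries numbered 3, with Mvk and Fads1, and the 1 lower was Ebp, at -0.36. That fit was chosen after seeing the data.

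Fatty acid synthesis starts with citrate cleavage by Acly, acetate activation by Acss2 and carboxylation by Acaca. Fasn, the synthase that builds palmitate (chromosome 11, 120805846 to 120824547, minus strand), had 792, 771 and 774 CPM in wild type and 942, 813 and 1267 CPM in Ythdf2-/-. The wild-type libraries, wild type 3 included, agreed closely, and all Ythdf2-/- libraries lay above them. The log2 fold change was 0.37 (SE 0.208, unadjusted p 0.123 in edgeR), 0.17 without Ythdf2-/- 3, and -0.05 on the log2(FPKM + 1) scale. Acss2 had 186, 200 and 177 CPM against 248, 168 and 345 CPM, and Acly had 608, 600 and 412 CPM against 582, 544 and 787 CPM, each with Ythdf2-/- 3 highest and the genotypes overlapping. Acaca varied least, 1.22-fold between its highest and lowest library, with a log2 fold change of 0.10 (SE 0.131). It shares 6118 bases at 99.2% identity with a processed pseudogene, Gm5182. Elovl6, which extends palmitate to stearate, had 275, 249 and 141 CPM against 275, 235 and 353 CPM.

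The stearoyl-CoA desaturases parted in wild type 3. Scd1 had 537, 550 and 450 CPM in wild type and 671, 468 and 981 CPM in Ythdf2-/- (log2 fold change 0.46, SE 0.288), lowest in wild type 3 and highest in Ythdf2-/- 3 like the sterol enzymes. Scd2 had 3713, 3802 and 5710 CPM against 4323, 3652 and 5094 CPM (log2 fold change -0.02, SE 0.273) and was highest in wild type 3. They share a stretch of 623 bases at 95.5% identity in annotated transcripts, so the split of reads between them is uncertain. Fads1, the delta-5 desaturase, and Fads2, the delta-6 desaturase, followed Scd2. Fads1 had 578, 618 and 1198 CPM against 913, 717 and 815 CPM. Its log2 fold change was 0.03 (SE 0.319), and 0.45 (SE 0.149) without wild type 3, when all Ythdf2-/- libraries lay above wild type 1 and 2. Fads2 had 302, 325 and 546 CPM against 403, 306 and 373 CPM, a log2 fold change of -0.12 (SE 0.267) that was 0.20 without wild type 3. Elovl5, their partner elongase, had 295, 281 and 196 CPM against 309, 226 and 381 CPM and followed the sterol enzymes instead.

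Summed over the 10 fatty acid genes, wild type 3 was the highest wild-type library, at 9852 CPM against 7524 and 7629 CPM. This sum was carried by a few abundant genes, Scd2 and Fads1 above all, since only 4 of the 10 were higher in wild type 3 than in wild type 1 and 2, and the median log2 ratio was -0.07. Glial markers differed in the same library. The 12 oligodendrocyte lineage markers summed to 1749 to 4513 CPM in wild type and 1871 to 2178 CPM in Ythdf2-/-, and the 7 astroglial markers to 1548 to 5421 CPM and 1160 to 1693 CPM, both highest in wild type 3. Of the 7 astroglial markers, Gfap (3046 CPM), Aqp4 (1107 CPM) and Agt (406 CPM) were highest in wild type 3, S100b and Slc1a2 lay between the other wild types and Gjb6 was below them. Aldh1l1, at 386 CPM in wild type 3, was above the other wild types but highest in Ythdf2-/- 2, at 481 CPM. The 8 neuronal markers summed to 1097 to 2062 CPM in wild type, again highest in wild type 3, and to 1199 to 1322 CPM in Ythdf2-/-, and the 10 progenitor markers to 6028 to 9116 CPM, lowest in wild type 3, and 8521 to 9493 CPM. Nes, Vim and Fabp7, among the most abundant of them, were lowest in wild type 3, while Sox2, Pax6, Sox9, Hes1 and Hes5 were highest there. Among the oligodendrocyte lineage markers, Mag had 0.257, 0.687 and 49.9 CPM in wild type 1 to 3 and no read in any Ythdf2-/- library. Mog had at most 4 reads in any library, and both genes were below the filter. In Ythdf2-/- 3 the oligodendrocyte markers summed to 2008 CPM, inside the range of the other Ythdf2-/- libraries, while the astroglial markers did not move together there, with Gfap (5.55 CPM), Aqp4, Agt and Aldh1l1 at their lowest of the 6 libraries and S100b (74.5 CPM) and Slc1a2 (750.4 CPM) at their highest. The microglia and endothelial lists summed to at most 6.68 and 2.65 CPM in any library, and the mesenchymal list to at most 4.35 CPM except for 32.4 CPM in wild type 3. The part of the other cell types in these values was not tested.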

How the data were processed

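Polyadenylated RNA was fragmented by sonication, and libraries were prepared with a TruSeq stranded kit. The authors deposited raw read counts for every gene, which are not normalized. The submitters' processing notes name mm10, featureCounts, Bowtie2 2.2.9 and RSEM 1.2.15, and the strand setting is not given in the sources used here. The authors also deposited expected counts, TPM and FPKM per library. The expected counts summed to 1.97% to 2.40% of the raw counts, and the FPKM values were used only as an alternative, the TPM values not at all. The 6 m6A-IP samples were not analysed here.

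From the raw counts, edgeR 4.0.16 (TMM, filterByExpr, robust glmQLFit, glmQLFTest, genotype only) was fitted to all 6 libraries in R 4.3.3, with Benjamini-Hochberg adjustment over all 13112 genes tested. DESeq2 1.42.0, limma 3.58.1, other scalings and filters, a replicate block, a term for Y-linked reads (a sum above 3) and leaving out libraries were alternatives. The scripts were tested on simulated data. CPM per kilobase used the deposited transcript lengths. Exon overlaps and near-identical stretches (BLAST 2.17.0, 95% identity, 100 bases) came from GENCODE M21. Members, lists and tests were chosen with earlier results of these data known. Members whose genotypes did not overlap, with an unadjusted p under 0.05, with the 3 largest fold changes in each direction or most abundant in their role, and a few fixed genes, were to be given by library, and the others by range or where they share a step.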

Additional observations from a re-analysis of the deposited data

How the results depend on the processing

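With 3 libraries a genotype, 0 members passed the adjusted threshold under any alternative run on the counts, so the values below are directions and sizes of differences that did not pass the test. Ythdf2 passed it with a log2 fold change of -2.67 in DESeq2, -2.61 in limma-voom with sample quality weights, -2.67 with RLE and -2.66 with upper-quartile scaling, -2.64 with no low-count filter, -2.66 with at least 10 counts in every library, -2.46 without both libraries numbered 3, and -2.75 with a term for Y-linked reads. With 1 library left out it ran from -2.78 to -2.54 and passed only without wild type 3 (adjusted p 0.0203), the other adjusted p in edgeR being 0.246 to 0.866.

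Same-numbered libraries of the genotypes correlated at -0.13, -0.15 and -0.34 in their deviations from the genotype mean. Deviations from a mean of 3 libraries, with wild type 3 apart, cannot show whether same-numbered samples were prepared together. With the replicate block the member median was 0.28, 0 members were higher at an unadjusted p under 0.05, Insig2 was at 0.00022, and no other member changed direction. Members higher at an unadjusted p under 0.05 numbered 11 with sample quality weights, 2 with library totals only, 21 with a term for Y-linked reads, 0 to 9 with 1 library left out and 6 without both libraries numbered 3, where 1 was lower. Members that did not overlap and were higher numbered 5 with library totals only (5.55% of all genes), 4 to 18 with 1 library left out (7.22% to 18.8%, and 11.6% where 18 were counted, without Ythdf2-/- 2) and 8 without both (28.4%). Those lower numbered 0 to 1 with 1 library left out (7.15% to 20%) and 4 without both (28%). The FPKM values with a pseudocount of 0.1 gave a member median of 0.53, and the sterol median without both libraries was -0.039. With 1 library left out, the member, sterol and fatty acid medians ran from 0.12 to 0.45, 0.12 to 0.51 and 0.06 to 0.39.

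The log2 fold change of single members changed sign as follows, and the cause was not tested. Without both libraries numbered 3 it was -0.039 for Hmgcs1, -0.27 for Idi1, -0.10 for Fdps, -0.15 for Sqle, -0.017 for Lss, -0.094 for Cyp51, -0.10 for Msmo1, -0.21 for Hsd17b7, -0.36 for Ebp, -0.038 for Sc5d, -0.052 for Dhcr7, -0.075 for Stard4, -0.10 for Acly, 0.086 for Scd2, 0.18 for Fads2, -0.11 for Elovl5 and -0.041 for Elovl6. With sample quality weights it was -0.069 for Idi1, -0.27 for Ebp, 0.010 for Srebf1, 0.21 for Scd2 and 0.27 for Fads2. With a term for Y-linked reads it was 0.050 for Insig2, 0.041 for Scap, -0.041 for Soat1, -0.19 for Abca1, -0.055 for Fads1 and -0.079 for Nr1h2. Insig2 was at 0.014 with library totals only and at 0.010 with no low-count filter, where Scd2 was at 0.0034. With FPKM and pseudocounts of 1 and 0.1, it was -1.08 and -2.15 for Pmvk, -0.23 and -0.24 for Fdft1, -0.74 and -0.95 for Hsd17b7, -0.58 and -1.54 for Ebp, -1.84 and -3.91 for Soat1, -0.049 and -0.10 for Fasn, 0.73 and 0.75 for Scd2, and 0.65 and 0.75 for Fads2, and for Scd1 it was -0.25 with the lower pseudocount. With 1 library left out it ran from -0.049 to 0.43 for Hmgcs1, -0.069 to 0.42 for Idi1, -0.022 to 0.45 for Hsd17b7, -0.14 to 0.58 for Ebp, -0.021 to 0.46 for Sc5d, -0.084 to 0.080 for Insig2, -0.15 to 0.095 for Scap, -0.054 to 0.37 for Soat1, -0.14 to 0.82 for Abca1, -0.14 to 0.21 for Scd2, -0.15 to 0.45 for Fads1, -0.27 to 0.20 for Fads2 and -0.034 to 0.21 for Nr1h2.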

Other observations

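Of 58 further genes of sterol, isoprenoid and fatty acid metabolism, 54 passed the filter, and their log2 fold changes were above 0 for 27 and below 0 for 27, with a median of 0.00. In edgeR 0 of them had an unadjusted p under 0.05 in either direction. Ythdf2-/- 3 was the highest library for 17 of the 54 (16.3% of all genes). Wild type 3 was the lowest for 21 (34.4%) and the highest for 20 (33.8%). The genotypes did not overlap for Dhdds, Lipa and Mylip, which were higher in Ythdf2-/- (5.24% of all genes), and for Cyb5r3 and Fabp5, which were lower (4.92%), shares near those of all genes. Mylip had few reads, 10 to 19 per library, with 14 in wild type 3 and 16 in Ythdf2-/- 1.

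Among 9 further mevalonate and isoprenoid enzymes, Acat1, a thiolase, had 250, 255 and 118 CPM in wild type and 232, 181 and 264 CPM in Ythdf2-/-, and Cyb5b, an electron carrier of sterol oxidation, had 326, 324 and 219 CPM against 339, 267 and 452 CPM. Both were lowest in wild type 3 and highest in Ythdf2-/- 3. Over the 9, wild type 3 was the lowest library for 4 and the highest for 4, and Ythdf2-/- 3 was the highest for 3. Their median log2 fold change was 0.01. Among 8 further proteins of the SREBP pathway, 2 had a log2 fold change above 0 and 6 below, and the most abundant, Vcp, an ATPase that extracts proteins from membranes, had 791 to 908 CPM over the 6 libraries.

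Among 17 sterol uptake, traffic and oxysterol genes, Apoe, an apolipoprotein of glia, had 1884, 2327 and 4493 CPM in wild type and 4618, 1598 and 1899 CPM in Ythdf2-/-. Lrp1, an ApoE receptor, had 254, 297 and 917 CPM against 524, 491 and 490 CPM. Wild type 3 and Ythdf2-/- 1 shared the high Apoe values, as they did for Abca1. Among 24 further fatty acid genes, Fabp7, a fatty acid binding protein of radial glia, had 2313, 2307 and 760 CPM against 1890, 1638 and 2409 CPM. Fabp5 had 816, 874 and 1165 CPM against 782, 548 and 678 CPM, a log2 fold change of -0.51 (SE 0.22).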
